A study of Arabidopsis thaliana with 10 samples.

Results

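The response of the KRAB line to dexamethasone (Dex) was measured in 4 of the 10 RNA-seq libraries of the series, as 2 libraries of KRAB (+0.25 μM Dex) and 2 libraries of KRAB (+DMSO), across all 33602 loci of the count table. KRAB seedlings are Col-0 Arabidopsis thaliana transformed with pTA7002-Dexp:KRAB, in which a Dex-inducible promoter drives dCas9-KRAB, a Cas9 protein without cutting activity fused to the KRAB repressor domain. They carry no single guide RNA (sgRNA) gene. Seedlings of both groups were grown for 8 d in long days on vertical plates of 1/2 MS medium with 1% sucrose, and the control medium held 0.1% DMSO, the solvent. The other 6 libraries are from P1-12, a Col-0 line that carries the same transgene and an additional U6-26p:P1 sgRNA gene aimed at MORF2, with 2 libraries each from P1-12 (+DMSO), from the lower dose, P1-12 (+0.025 μM Dex), and from the higher dose, P1-12 (+0.25 μM Dex). Each genotype is 1 transgenic line, and whole seedlings were used.

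In the pTA7002 system, a constitutively made activator joins the DNA-binding domain of the yeast protein GAL4 to a viral activation domain and the hormone-binding domain of the rat glucocorticoid receptor. Dex, a synthetic glucocorticoid that plants do not make, releases this activator, which then binds GAL4 sites placed upstream of the transgene. Without an sgRNA, dCas9-KRAB has no sequence to be guided to, so KRAB (+0.25 μM Dex) against KRAB (+DMSO) asks what Dex, the activator and unguided dCas9-KRAB do to the transcriptome. The 10 libraries analysed here hold no untransformed seedlings, so these components cannot be told apart.

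The KRAB (+0.25 μM Dex) libraries held 40544617 and 11258981 counts, and the KRAB (+DMSO) libraries held 11572935 and 29749669 counts. The 6 P1-12 libraries held between 9139050 and 12965935 counts. Levels are given as CPM, counts scaled by the library total with the TMM method, and the 16721 genes that exceeded 2 CPM in 9 or more libraries were tested. Across these genes, which are not independent replicates, Pearson's correlation of log2 CPM was 0.992 between the KRAB (+0.25 μM Dex) libraries and 0.993 between the KRAB (+DMSO) libraries, and it ranged from 0.987 to 0.988 between the groups. The study describes its duplicate libraries as biological replicates and does not say how seedlings were pooled, and p-values measure the spread between the 2 libraries of each group.

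MORF2, the sgRNA target of P1-12, did not differ in the KRAB line. Its CPM was 116 and 123 in KRAB (+0.25 μM Dex), against 124 and 118 in KRAB (+DMSO), a log2 fold change of −0.02 ± 0.07 (SE). The groups overlapped, and the adjusted p was 0.929 (edgeR quasi-likelihood test, Benjamini-Hochberg adjustment, as for every adjusted p here). In P1-12 at 0.25 μM Dex the same gene fell by 1.09, and the KRAB and P1-12 responses differed by 1.07 on the log2 scale (adjusted p = 1.36e-06). The other 7 tested members of the MORF family, the plastid and mitochondrial RNA editing factors, also gave no call in the KRAB line with edgeR or DESeq2 and had no unadjusted p under 0.05, with log2 fold changes between −0.02 and 0.20 over all 8.

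Few genes passed the thresholds for a significantly differentially expressed gene (SDEG) with the edgeR quasi-likelihood test. At a log2 fold change of at least 1 and an adjusted p under 0.0001, 16 genes were upregulated SDEGs (0.0957% of the genes tested) and 1 gene was a downregulated SDEG (0.00598%). At an adjusted p under 0.05 with no fold threshold, 344 genes rose (2.06%) and 136 fell (0.813%), 2.87% in both directions, with median changes of 0.622 and 0.470 on the log2 scale in absolute size. Of these, 76 genes rose by at least 1 and 5 fell by at least 1 on the log2 scale. The counts depended on single libraries: leaving out KRAB (+DMSO) replicate 2 left 3 upregulated SDEGs, 86 genes higher and 16 lower, leaving out KRAB (+0.25 μM Dex) replicate 1 left 5, 131 and 119, and leaving out KRAB (+0.25 μM Dex) replicate 2 gave 44 upregulated SDEGs. Leaving out KRAB (+DMSO) replicate 1 left 7 upregulated SDEGs.

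**Figure D1:**
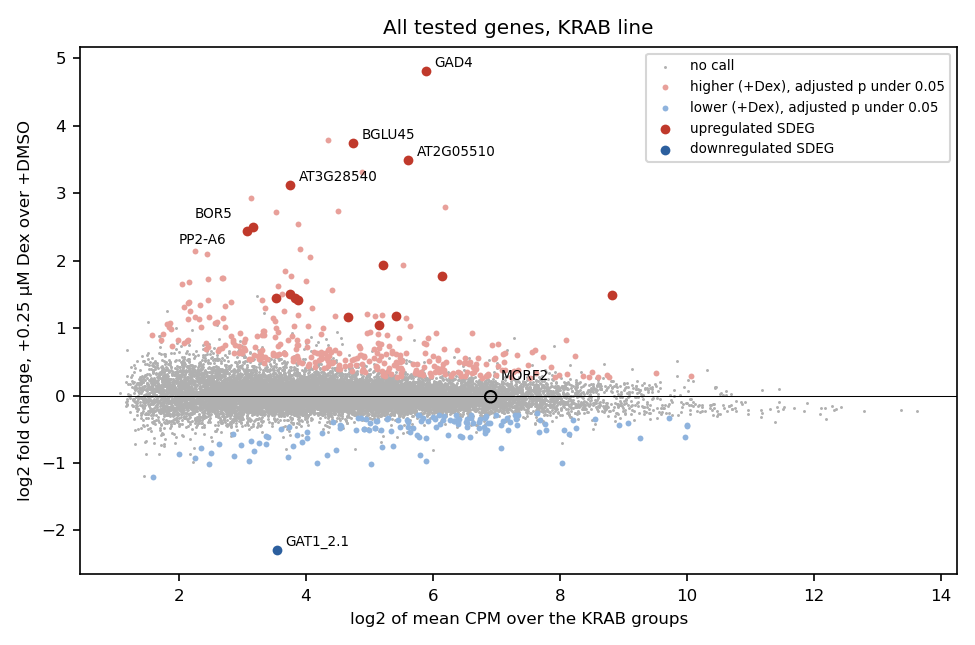
Log2 fold change of KRAB (+0.25 μM Dex) over KRAB (+DMSO) against the log2 of the mean CPM of the KRAB groups, 1 point per tested gene. Red and blue points are the 16 upregulated SDEGs and the 1 downregulated SDEG, pale points are the other genes that passed the test at 0.05, and the circle marks MORF2 at −0.02.

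The SDEG with the largest log2 fold change, 4.81 ± 0.34 (SE), was GAD4 (AT2G02010), a glutamate decarboxylase, the enzyme class that makes γ-aminobutyric acid from glutamate. Its CPM was 161 and 67.6 in KRAB (+0.25 μM Dex), against 4.08 and 4.21 in KRAB (+DMSO). Both Dex libraries lay far above both DMSO libraries, although they also differed from each other, and the fold change was 28.1 (95% interval 17.0 to 46.4, adjusted p = 4.14e-06). BGLU45 (AT1G61810), a β-glucosidase that acts on the glucosides of lignin precursors, had CPM values of 51.4 and 47.8 in KRAB (+0.25 μM Dex), against 3.91 and 3.61 in KRAB (+DMSO). The libraries of each group lay close together, and its log2 fold change of 3.75 ± 0.16 (SE) had an adjusted p of 2.33e-08, the lowest of the 17 SDEGs. BGLU45 stayed an SDEG in all 14 alternative analyses.

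AT2G05510, annotated as a glycine-rich protein, had CPM values of 127 and 50.8 in KRAB (+0.25 μM Dex), against 10.4 and 6.84 in KRAB (+DMSO), a log2 fold change of 3.49 ± 0.35 (SE). AT3G28540, annotated as a P-loop nucleoside triphosphate hydrolase, had 31.8 and 16.0 CPM in KRAB (+0.25 μM Dex), against 3.73 and 2.56 CPM in KRAB (+DMSO). BOR5, a member of the boron transporter family annotated as a bicarbonate transporter, had 18.8 and 11.6 CPM with Dex, against 2.57 and 2.94 CPM with DMSO. For these genes the groups did not overlap, but the Dex libraries differed from each other by more than the DMSO libraries did. In 15 of the 16 upregulated SDEGs the CPM was higher in Dex replicate 1 than in Dex replicate 2, by up to 2.51 times in AT2G05510, and in 4 of them by more than 1.5 times.

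The promoters of BGLU45 and AT2G05510 are shown because each holds a match to the GAL4 site, the triplets CGG and CCG with 11 bases of any kind between them, the sequence that the DNA-binding domain of the pTA7002 activator recognises. Each is the run of 250 bases before the annotated start, read 5′ to 3′ on the strand of the gene from the RefSeq TAIR10.1 genome, with the fixed bases of the GAL4 site in capitals. The BGLU45 promoter is at chr1:22829671-22829920 and that of AT2G05510 at chr2:2015374-2015623, both on the plus strand.
BGLU45: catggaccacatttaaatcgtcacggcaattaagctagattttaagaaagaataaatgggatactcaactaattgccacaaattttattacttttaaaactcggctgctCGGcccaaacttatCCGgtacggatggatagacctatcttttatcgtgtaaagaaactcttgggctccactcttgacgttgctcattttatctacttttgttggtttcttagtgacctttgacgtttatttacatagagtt
AT2G05510: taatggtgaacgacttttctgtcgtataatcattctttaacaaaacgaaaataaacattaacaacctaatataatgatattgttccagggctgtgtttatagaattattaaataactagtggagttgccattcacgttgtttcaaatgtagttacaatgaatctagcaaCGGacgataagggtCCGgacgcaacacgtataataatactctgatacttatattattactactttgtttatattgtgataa
The match in BGLU45 starts 141 bases before the annotated start and that in AT2G05510 81 bases before it. In the window from 250 bases before to 50 after the start, 2 of the 16 upregulated SDEGs had a GAL4 site (12.5%), against 281 of the 16662 tested genes whose promoter was read (1.69%). Of all 344 genes that rose, 8 had one (2.33%), and of the 130 genes that fell and had a promoter, 0 had one. Read the other way, 8 of the 281 genes with a GAL4 site rose (2.85%), against 2.06% of all genes, and their median log2 fold change was 0.01. These 8 include BGLU45 and AT2G05510, and the others among them had log2 fold changes between 0.34 and 0.74. In a wider window of the 1000 bases before the start, added after the data were seen, MYB51 also had a GAL4 site, at −553 relative to its start, which made 3 of 16 SDEGs (18.8%), against 4.87% of all genes, while the share was 5.81% in the genes that rose (20 of 344) and 3.08% in those that fell (4 of 130).

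The other motifs searched on both strands were the GCC box GCCGCC, the W box core TTGAC, the as-1 core TGACG and the G box CACGTG. In the window around the start, the W box core was in 10 of the 16 upregulated SDEGs (62.5%) and in 50.6% of all promoters. The as-1 core was in 2 of 16 (12.5%) and in 23.8% of all, the G box was in 2 of 16 (12.5%) and in 8.83% of all, and the GCC box was in 0 of 16 and in 2.73% of all. The W box and as-1 cores overlap where the sequence reads TTGACG, which occurs in BGLU45. These matches are descriptions of letters in a window and were not tested.

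**Figure D2:**
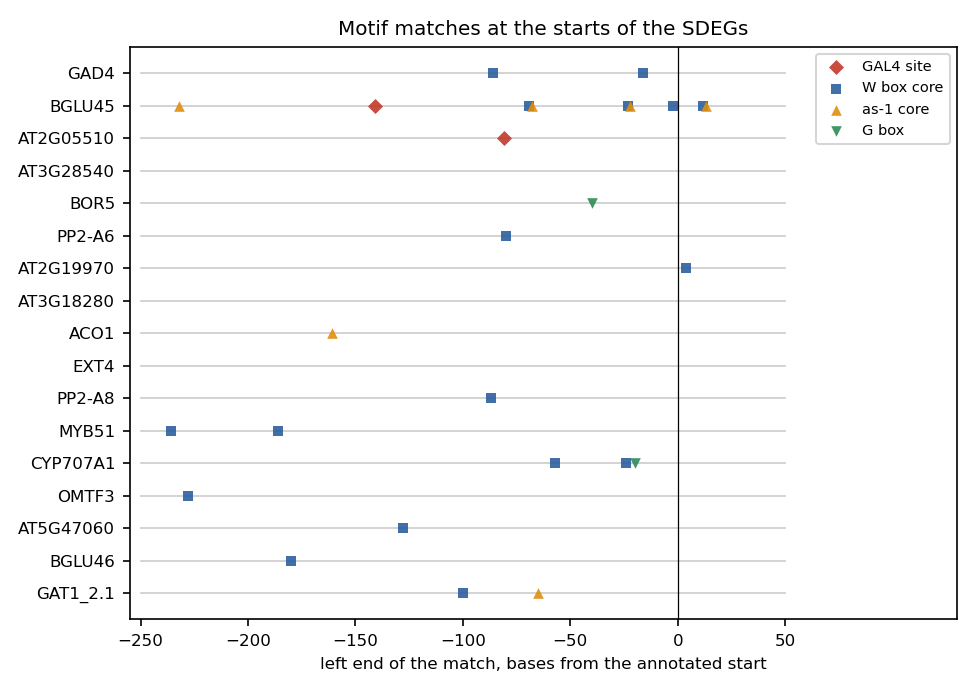
Positions of motif matches from 250 bases before to 50 bases after the annotated start of each SDEG, 1 line per gene in order of log2 fold change. The GAL4 site is in BGLU45, at −141, and AT2G05510, at −81, and the most frequent match is the W box core.

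The SDEGs included 2 pairs of neighbouring genes. BGLU45 and BGLU46 lie on chromosome 1 on the same strand with 349 bases between their annotated ends, and BGLU46 encodes an enzyme of the same kind. BGLU46 had 51.2 and 44.3 CPM in KRAB (+0.25 μM Dex), against 21.5 and 24.5 CPM in KRAB (+DMSO), so that its Dex level was close to that of BGLU45 while its DMSO level was higher. Its log2 fold change was 1.05 ± 0.10 (SE). PP2-A6 and PP2-A8, which encode lectin-like phloem proteins, lie on chromosome 5 on the same strand, 1831 bases apart. PP2-A6 had 14.1 CPM in both KRAB (+0.25 μM Dex) libraries, against 3.55 and 2.14 CPM in KRAB (+DMSO), and PP2-A8 had 20.4 and 21.2 CPM, against 7.90 and 7.43 CPM. In both genes the Dex libraries were closer together than the DMSO libraries when read as a ratio of CPM. Another member of the family, PP2-A13, fell, with 17.9 and 13.9 CPM with Dex, against 24.7 and 32.0 CPM with DMSO (log2 fold change −0.81, adjusted p = 0.00413), and was named after its values were seen.

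Among hormone-related SDEGs, ACO1 (AT2G19590) encodes an ACC oxidase, which carries out the last step of ethylene synthesis. It had 19.9 and 19.4 CPM in KRAB (+0.25 μM Dex), against 8.08 and 6.31 CPM in KRAB (+DMSO), a log2 fold change of 1.503 ± 0.14 (SE). CYP707A1 encodes a hydroxylase that starts the breakdown of abscisic acid, and had 24.03 and 18.7 CPM with Dex, against 7.55 and 8.55 CPM with DMSO (1.42 ± 0.14). MYB51, an activator of indole glucosinolate synthesis, had 17.39 and 15.8 CPM with Dex, against 7.37 and 5.54 CPM with DMSO (1.44 ± 0.12). In each of these genes both Dex libraries exceeded both DMSO libraries, and each lost its SDEG call, though not an adjusted p under 0.05, in 5 or 6 of the 14 alternatives.

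EXT4, an extensin of the cell wall, was the most abundant SDEG, with 751 and 580 CPM in KRAB (+0.25 μM Dex), against 286 and 193 CPM in KRAB (+DMSO), a log2 fold change of 1.48 ± 0.15 (SE). AT3G18280, annotated in the lipid-transfer protein superfamily, had 121 and 96.1 CPM with Dex, against 32.4 and 31.6 CPM with DMSO. AT2G19970, annotated in the superfamily of PATHOGENESIS-RELATED 1, had 62.3 and 54.6 CPM with Dex, against 15.8 and 15.04 CPM with DMSO. Both had narrow groups, and both stayed SDEGs in 13 of the 14 alternative analyses, in all but the fit of the 4 KRAB libraries alone. OMTF3, annotated as a methyltransferase, had 65.4 and 52.2 CPM with Dex, against 26.5 and 26.2 CPM with DMSO (1.18 ± 0.12). AT5G47060, annotated with the DUF581 domain, had 38.1 and 31.3 CPM with Dex, against 16.5 and 15.3 CPM with DMSO (1.16 ± 0.10).

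The downregulated SDEG was GAT1_2.1 (AT1G15040), annotated as a class I glutamine amidotransferase-like protein. Its CPM was 3.98 and 4.01 in KRAB (+0.25 μM Dex), against 17.8 and 20.8 in KRAB (+DMSO), which is −2.29 ± 0.12 (SE) on the log2 scale with an adjusted p of 1.90e-07. The Dex libraries were almost equal and lay far below both DMSO libraries, and the gene stayed a downregulated SDEG in 13 of the 14 alternative analyses. The next largest falls, named after their values were seen, were CIPK16, a protein kinase of calcium signalling, at −1.20, and AT2G05540, another glycine-rich protein, at −1.02.

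**Figure D3:**
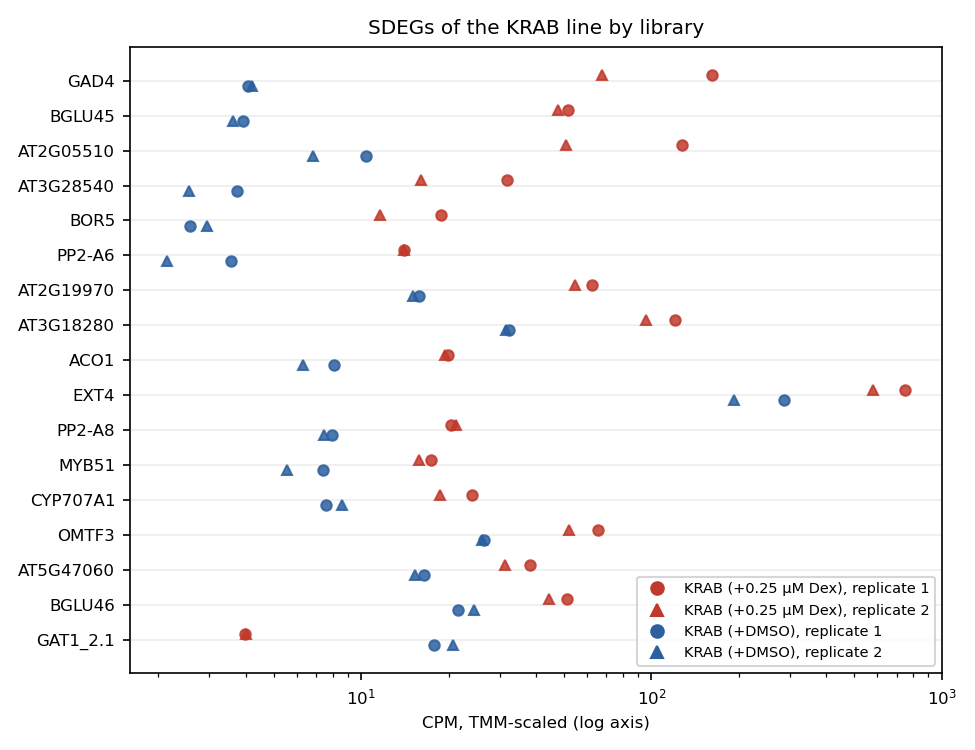
CPM of each SDEG in the 4 KRAB libraries on a log axis, with KRAB (+0.25 μM Dex) in red and KRAB (+DMSO) in blue, circles for replicate 1 and triangles for replicate 2. The groups do not overlap in any of the 17 genes, and GAD4, at 161 and 67.6 CPM with Dex against 4.08 and 4.21 CPM with DMSO, shows both the widest gap between groups and a wide gap between its Dex libraries.

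Gene lists for pathways and tissues were read by how many members passed the test, beside the 2.06% of all tested genes that rose and the 0.813% that fell. Of 7 tested outputs of jasmonate and ethylene defence, 4 rose and 0 fell with edgeR, 1 rose and 0 fell with DESeq2, and the median log2 fold change was 0.76, against −0.0040 over all tested genes. The plant defensin PDF1.2a, a small antifungal peptide, had 29.95 and 17.62 CPM in KRAB (+0.25 μM Dex), against 7.90 and 4.35 CPM in KRAB (+DMSO) (log2 fold change 2.17, adjusted p = 0.0144). PDF1.3 had 30.7 and 21.5 CPM with Dex, against 11.0 and 4.102 CPM with DMSO (2.05, adjusted p = 0.00485). The PDF1 genes are near-identical copies whose reads may have been split in the counting, and PDF1.2c had a log2 fold change of 1.47 without a call. The chitinase PR3 had 28.8 and 26.8 CPM with Dex, against 17.9 and 18.3 CPM with DMSO (0.62), and PR4, a hevein-like protein, had a log2 fold change of 0.76. The calls of PDF1.2a, PDF1.3 and PR4 were lost with DESeq2, without KRAB (+0.25 μM Dex) replicate 1 and without KRAB (+DMSO) replicate 2, and that of PR3 was kept in all 14 alternatives.

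Camalexin and indole glucosinolates are tryptophan-derived defence compounds of Arabidopsis. Of 16 tested genes of their synthesis, 6 rose and 0 fell (median 0.46). Beside MYB51, CYP83B1, which acts early in the indole glucosinolate branch, had 376 and 322 CPM in KRAB (+0.25 μM Dex), against 209 and 189 CPM in KRAB (+DMSO), a log2 fold change of 0.82 ± 0.09 (SE). IGMT2, which methylates indole glucosinolates, had 25.0 and 16.4 CPM with Dex, against 6.92 and 5.89 CPM with DMSO (1.78, adjusted p = 1.02e-04, just above the SDEG threshold). Its near-identical copy IGMT1 had a log2 fold change of −0.39 without a call, and reads of these copies may have been split. GSTF6, a glutathione transferase of camalexin synthesis, had 128 CPM in both Dex libraries, against 91.8 and 46.2 CPM with DMSO, and its call (0.93, adjusted p = 0.0493) was lost in 7 of the 14 alternatives. CYP79B2 and SOT16 rose by 0.75 and 0.48, while CYP79B3, PEN2 (AT2G44490) and PEN3 (AT1G59870) had log2 fold changes of −0.09, 0.06 and 0.0019.

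Other defence lists held few calls. Of 11 tested genes of salicylic acid and pathogen defence, WRKY54 rose (0.91) with edgeR and not with DESeq2, and ICS1 and PR5 had log2 fold changes of 0.21 and 0.03. Of 12 tested genes of pattern-triggered immunity, RBOHD rose, the oxidase that makes apoplastic reactive oxygen, with 83.3 and 70.9 CPM in KRAB (+0.25 μM Dex), against 48.4 and 38.7 CPM in KRAB (+DMSO) (0.85, adjusted p = 0.00159). No gene of these 2 lists fell. Of 44 tested WRKY transcription factor genes, 4 rose and 0 fell (median 0.11): WRKY45 (1.08), WRKY23 (0.95), WRKY54 (0.91) and WRKY6 (0.39). Of 20 tested genes of jasmonate synthesis and JAZ repressors, 0 passed the test in either direction with edgeR or DESeq2, and 2 had an unadjusted p under 0.05. Of 16 tested genes of ethylene synthesis and signalling, ACO1 was the 1 that rose and 0 fell, and EIN3, EBF2 and ETR2 had log2 fold changes of −0.12, −0.06 and 0.20.

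**Figure D4:**
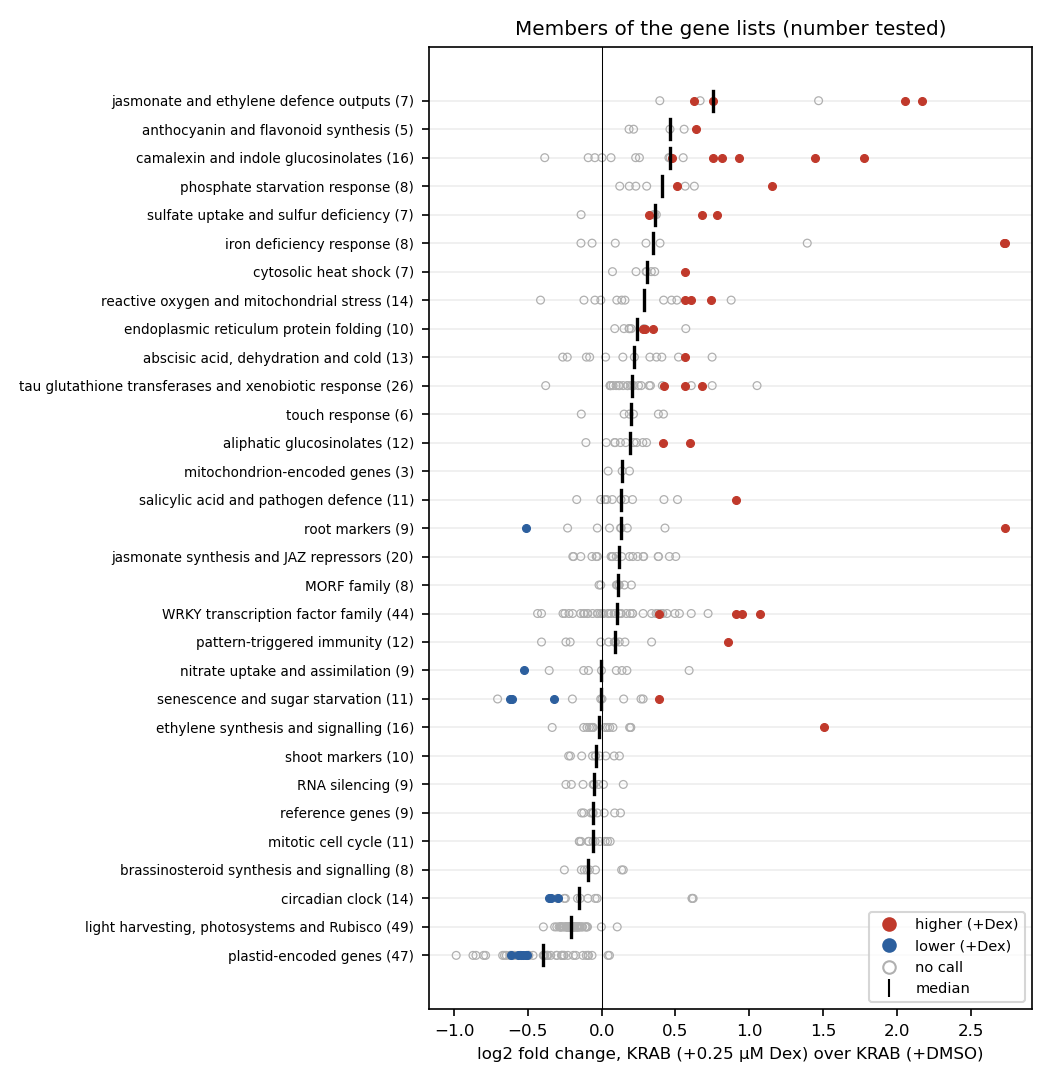
Log2 fold change of KRAB (+0.25 μM Dex) over KRAB (+DMSO) for each tested member of the gene lists, with the number tested in parentheses, filled red (higher) or blue (lower) where the adjusted p was under 0.05 and open otherwise. Black bars are list medians, from 0.76 for jasmonate and ethylene defence outputs to −0.40 for plastid-encoded genes, and most members of most lists are open.

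Stress lists showed scattered calls. Of 14 tested genes of reactive oxygen and mitochondrial stress, 3 rose and 0 fell with edgeR, and 2 rose and 1 fell with DESeq2. NDB2, an alternative mitochondrial NADH dehydrogenase, had 54.4 and 53.9 CPM in KRAB (+0.25 μM Dex), against 34.8 and 36.2 CPM in KRAB (+DMSO) (0.61 ± 0.07, SE). OM66 and the superoxide dismutase CSD1 rose by 0.74 and 0.56. Of 26 tested genes of tau glutathione transferases and xenobiotic response, UGT74E2, GSTU25 and UGT73B4 rose by 0.68, 0.56 and 0.42, and 25 of the 26 had a positive log2 fold change, with a median of 0.20. Of 10 tested genes of protein folding in the endoplasmic reticulum, the chaperones BIP2, CNX1 and CRT2 rose by 0.35, 0.29 and 0.28, and all 10 had a positive value (median 0.24). Of 7 tested cytosolic heat shock genes HSP70-4 rose (0.56). Of 13 tested genes of abscisic acid, dehydration and cold, the phosphatase ABI2 rose (0.56), while RD29A and RAB18 (AT5G66400) had log2 fold changes of −0.23 and 0.41. No gene of these 5 lists fell with edgeR. With DESeq2 the calls of UGT74E2, OM66 and ABI2 were lost. These small changes were sensitive to the libraries: of the 45 called list members that the naming rule takes outside the SDEGs, 35 lost their call without KRAB (+DMSO) replicate 2, 26 without KRAB (+0.25 μM Dex) replicate 1, 17 without KRAB (+DMSO) replicate 1 and 10 without KRAB (+0.25 μM Dex) replicate 2. PR3, RBOHD, IGMT2, CYP83B1, NDB2 and PHT1;1 kept it in all alternatives.

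Nutrient lists held some of the larger changes. IRT1, the main iron uptake transporter of the root, had 25.0 and 52.2 CPM in KRAB (+0.25 μM Dex), against 10.3 and 3.01 CPM in KRAB (+DMSO) (log2 fold change 2.73 ± 0.46, SE). FRO2, the ferric chelate reductase that acts with it, had 11.9 and 27.8 CPM with Dex, against 4.88 and 1.72 CPM with DMSO (2.72 ± 0.51). In both genes Dex replicate 2 was the highest library and DMSO replicate 2 the lowest, and without DMSO replicate 2 neither passed the test, while with DESeq2 FRO2 did not. These were 2 of 8 tested genes of the iron deficiency response, of which 0 fell, and their regulator FIT had a log2 fold change of −0.07. Of 7 tested genes of sulfate uptake and sulfur deficiency, the 3 reductases of sulfate assimilation APR1, APR3 and APR2 rose by 0.78, 0.68 and 0.32. Of 8 tested phosphate starvation genes, the acid phosphatase PAP17 and PHO1;H1 rose by 1.15 and 0.51, and the calls of APR2 and PHO1;H1 were lost with DESeq2. No gene of the sulfate and phosphate lists fell, but the phosphate transporter PHT1;1, read below among the root markers, fell by 0.51. Of 9 tested genes of nitrate uptake and assimilation, 0 rose and NRT3.1, a partner of nitrate transporters, fell by 0.53, while the nitrate reductases NIA1 and NIA2 had log2 fold changes of −0.36 and −0.09.

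Changes in genes of the photosynthetic apparatus were mostly small and almost all negative. Of 49 tested genes of light harvesting, photosystems and Rubisco, 0 passed the edgeR test in either direction, while 31 had an unadjusted p under 0.05, all 31 negative, and 48 had a negative log2 fold change, between −0.40 and 0.11 with a median of −0.21. The summed CPM of the list was 116082 and 114161 in KRAB (+0.25 μM Dex), against 124019 and 134031 in KRAB (+DMSO). Unlike the CPM of single genes, sums over lists are scaled by the library total alone, without the TMM factors. LHCB1.3 and RBCS1A both had a log2 fold change of −0.22. With DESeq2, 5 of the 49 were called lower, and with DESeq2 or upper-quartile scaling 47 of the 49 were negative. Of 47 tested plastid-encoded genes, 6 fell and 0 rose, and 45 had a negative log2 fold change (median −0.40). Plastid loci took 0.891% and 0.874% of all counts in KRAB (+0.25 μM Dex), against 1.07% and 1.08% in KRAB (+DMSO). ATCG01110 had 67.5 and 72.0 CPM with Dex, against 110 and 103 CPM with DMSO, and ATCG00740 had 152 and 182 CPM with Dex, against 243 and 238 CPM with DMSO. ATCG00280 and ATCG00750 fell by 0.57 and 0.54, and in these 4 genes both Dex libraries lay below both DMSO libraries. In whole seedlings, fewer cells of a type and less RNA per cell cannot be told apart.

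Markers of roots and shoots were read beside these values. Of 10 shoot markers, all tested, 0 passed the test with edgeR or DESeq2 and 2 had an unadjusted p under 0.05. Their summed CPM, without the TMM factors, was 12314 and 11502 in KRAB (+0.25 μM Dex), against 13336 and 13570 in KRAB (+DMSO). Most of it was LHCB1.3. Of 9 tested root markers, IRT1 rose and PHT1;1, a phosphate transporter, fell by 0.51, and the others had log2 fold changes between −0.23 and 0.43. The summed CPM of all 10 root markers, also without the TMM factors, was 3569 and 3624 with Dex, against 4133 and 3985 with DMSO. Most of it was PYK10. All 19 tested markers were detected in each of the 4 libraries, which the filter of the tests largely fixed in advance. The part of tissue composition in the results was not tested.

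Among growth and metabolic lists, the circadian clock had 3 of 14 tested genes lower and 0 higher: PRR5, TOC1 and PRR7 fell by 0.36, 0.34 and 0.30. TOC1 had 73.6 and 76.4 CPM in KRAB (+0.25 μM Dex), against 95.4 and 94.6 CPM in KRAB (+DMSO). The morning genes CCA1, LHY and PRR9 had log2 fold changes of 0.61, 0.61 and 0.62 without a call. Of 11 tested genes of senescence and sugar starvation, WRKY6 rose and DIN10, DIN1 and NYC1 fell by 0.62, 0.61 and 0.33 with edgeR, while with DESeq2 the calls of DIN10 and DIN1 were lost. DIN10, a raffinose synthase family gene induced by darkness and sugar loss, had 913 and 660 CPM with Dex, against 1055 and 1367 CPM with DMSO. Of 12 tested aliphatic glucosinolate genes, MAM3 and SOT17 rose by 0.60 and 0.42, SOT17 with edgeR only, and of 5 tested anthocyanin and flavonoid genes CHS, chalcone synthase, rose by 0.64, with 0 lower in either list. No call was made with edgeR among 8 brassinosteroid, 11 mitotic cell cycle, 9 RNA silencing, 6 touch response, 3 mitochondrion-encoded and 9 reference genes, where an unadjusted p under 0.05 was found for 1, 0, 1, 2, 0 and 0 genes in that order, and DESeq2 called 0. The reference genes had log2 fold changes between −0.14 and 0.13.

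The KRAB response was compared with that of P1-12 at the same dose, which shares no library with it. In P1-12, 28.3% of the genes tested rose at 0.25 μM Dex and 29.2% fell, and at 0.025 μM Dex 4.55% rose and 3.46% fell. The 2 P1-12 doses share the P1-12 (+DMSO) libraries. All 16 upregulated SDEGs of KRAB also rose in P1-12 (+0.25 μM Dex), 15 of them as SDEGs (5.93% of all genes were), and 12 rose in P1-12 (+0.025 μM Dex), 5 of them as SDEGs (0.431% of all genes were). The P1-12 genes with the largest log2 fold changes at 0.25 μM Dex were AT2G05510 (8.05), BGLU45 (8.04) and GAD4 (7.08), which ranked 4, 3 and 1 in KRAB. BGLU45 had 945 and 921 CPM in P1-12 at 0.25 μM Dex, against 2.31 and 4.77 CPM in P1-12 (+DMSO), with 348 and 386 CPM at the lower dose.

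Each of the 17 SDEGs responded differently in the lines at 0.25 μM Dex, where 48.0% of the genes tested did (adjusted p under 0.05 for the difference), 22.9% with the more negative and 25.1% with the more positive value in KRAB. The KRAB response was the smaller one in 14 of the 16 upregulated SDEGs, by between 0.98 in AT3G18280 and 4.56 in AT2G05510 on the log2 scale. MYB51 differed by −3.83, since its CPM was 263 and 251 in P1-12 (+0.25 μM Dex). AT2G19970 and PP2-A8 were the exceptions, with a KRAB response larger by 0.76 and 0.66 (adjusted p = 0.00285 and 0.0108). AT2G19970 had a log2 fold change of 1.94 in KRAB and 1.18 in P1-12 at 0.25 μM Dex, and its value of −0.47 in P1-12 at 0.025 μM Dex did not pass the test. IRT1 and FRO2 had log2 fold changes of 2.73 and 2.72 in KRAB and 2.58 and 2.36 in P1-12, and the differences of 0.15 and 0.36 did not pass the test (SE 0.65 and 0.76).

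**Figure D5:**
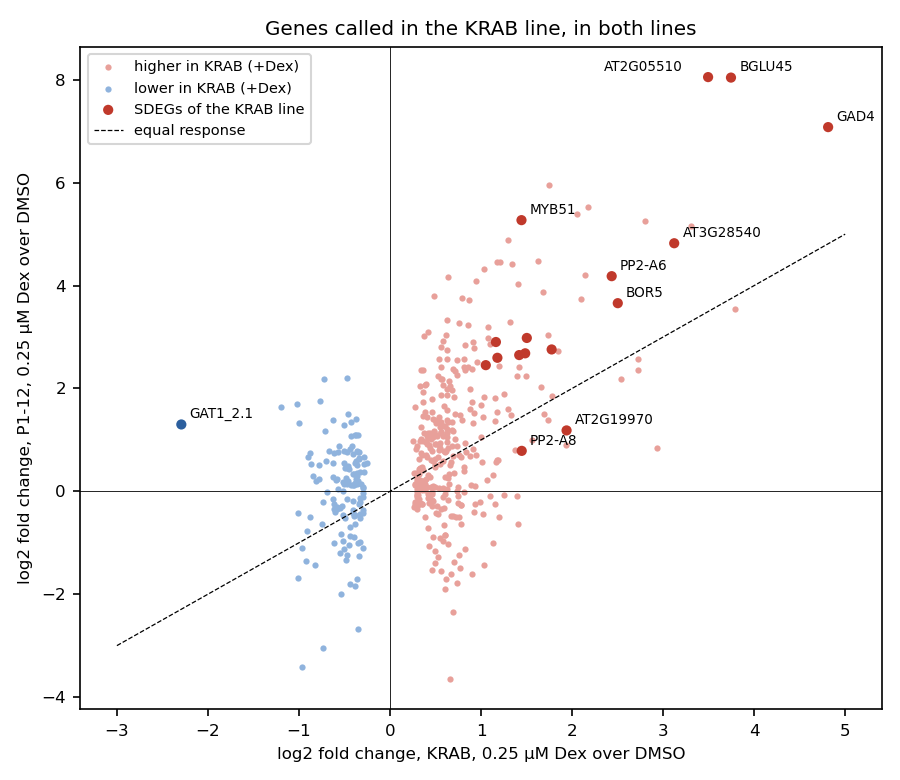
Log2 fold change at 0.25 μM Dex over DMSO in P1-12 (y axis) against KRAB (x axis) for the 344 genes that rose and the 136 that fell in KRAB, with the SDEGs of KRAB as larger points and the line of equal response dashed. Of the SDEGs, GAT1_2.1 lies at the upper left, lower in KRAB and higher in P1-12, and AT2G05510, BGLU45 and MYB51 lie far above the line.

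GAT1_2.1 had opposite responses. It fell by 2.29 in KRAB and rose by 1.2999 in P1-12 at 0.25 μM Dex, where it was an upregulated SDEG with 55.8 and 55.5 CPM, against 23.7 and 21.5 CPM in P1-12 (+DMSO). The difference between the lines was −3.59 on the log2 scale (adjusted p = 2.87e-09). At 0.025 μM Dex it had 19.7 and 18.3 CPM in P1-12, a log2 fold change of −0.25 without a call.

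Of the 344 genes higher in KRAB, 227 rose (66.0%) and 46 fell (13.4%) in P1-12 (+0.25 μM Dex). Of the 136 genes lower in KRAB, 57 rose (41.9%) and 46 fell (33.8%) there. Among all genes tested, 28.3% rose and 29.2% fell there. Opposite calls were more frequent than this among the genes lower in KRAB, of which 41.9% rose. They were less frequent among the genes higher in KRAB, of which 13.4% fell. Whether these shares depart from those of all genes was not tested. In all, 103 genes were called in opposite directions in the lines, each with a difference past the test, which opposite calls largely fix in advance. The examples that follow were named after their values were seen. Among the 57 lower in KRAB and higher in P1-12, the branched-chain amino acid genes BCAT-2 and IVD had log2 fold changes of −0.72 and −0.46 in KRAB and of 2.18 and 1.502 in P1-12. TPS9 and TPS10, of the trehalose-phosphate synthase family, had −0.43 and −0.35 in KRAB and 1.34 and 1.09 in P1-12. BT2 had 99.7 and 86.5 CPM in KRAB (+0.25 μM Dex), against 135 and 125 CPM in KRAB (+DMSO), and its log2 fold change was −0.47 in KRAB and 2.19 in P1-12. Among the 46 higher in KRAB and lower in P1-12, the extensins EXT6, EXT11, EXT12 and EXT13 had log2 fold changes between 0.53 and 0.74 in KRAB and between −1.78 and −1.28 in P1-12. MRN1, marneral synthase, had 18.19 and 19.6 CPM in KRAB (+0.25 μM Dex), against 8.88 and 9.29 CPM in KRAB (+DMSO) (1.04 in KRAB, −1.43 in P1-12). GTR1, a glucosinolate transporter, and MAM3 had 0.49 and 0.60 in KRAB and −1.40 and −0.85 in P1-12.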

How the data were processed

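The KRAB libraries were made from total RNA of whole seedlings. The authors trimmed paired 150-base reads with Trimmomatic (minimum length 36), used TopHat2 for alignment to TAIR10 and HTSeq for counting (versions and strand setting not given in the sources used here). The deposited table holds raw counts for each locus, and antisense, overlapping and near-identical genes are uncertain. Groups follow the sample labels.

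Tests used R 4.3.3 and edgeR 4.0.16 (glmQLFit, glmQLFTest, TMM, 1 means model of the 5 groups over 10 libraries), since the study names edgeR but no test. Tested loci held at least 98.77% of each library's counts. The 28 gene lists, with 451 loci, were written from general knowledge, the WRKY family was taken by annotation and organelle genes by locus prefix. Members and lists were chosen with earlier results of these data known. Named were all SDEGs, MORF2 and up to 4 called members per list with the largest change, beside others as stated. Coordinates, promoters and annotations come from RefSeq TAIR10.1, with 32835 loci matched; MORF2 coordinates are not used here. Scripts were tested on simulated data. Alternatives included DESeq2 1.42.0, other filters and scalings, thinning, blocks and leaving out each KRAB library.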

Additional observations from a re-analysis of the deposited data

Results flagged for a closer look

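The 17 SDEGs of the KRAB line are listed here because their response to 0.25 μM Dex differed between KRAB and P1-12. The difference itself was tested (edgeR quasi-likelihood test, adjusted p under 0.05 over all tested genes, KRAB minus P1-12 on the log2 scale). The KRAB libraries by which these genes were chosen also enter this test. The difference was negative for GAD4 (−2.27), BGLU45 (−4.30), AT2G05510 (−4.56), AT3G28540 (−1.70), BOR5 (−1.16), PP2-A6 (−1.75) and AT3G18280 (−0.98). It was also negative for ACO1 (−1.48), EXT4 (−1.20), MYB51 (−3.83), CYP707A1 (−1.23), OMTF3 (−1.42), AT5G47060 (−1.74) and BGLU46 (−1.40), so that all 14 rose in both lines and by less in KRAB. It was positive for AT2G19970 (0.76) and PP2-A8 (0.66), which rose by more in KRAB. GAT1_2.1 (−3.59) fell in KRAB and rose in P1-12. The adjusted p was highest for BOR5 (0.0154), PP2-A8 (0.0108) and AT3G28540 (0.0102) and lowest for GAT1_2.1 (2.87e-09). Over all genes tested, 48.0% differed between the lines by the same test.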

How the results depend on the processing

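All 17 SDEGs kept their direction and an adjusted p under 0.05 in each of the 14 alternatives, and of the values of single named genes over those alternatives 710 kept their direction and their call or its absence, 168 lost the call and 4 reversed. All 4 are of MORF2, near 0 throughout: 0.0018 with upper-quartile scaling, 0.035 after thinning and between −0.066 and 0.027 when 1 library was left out. Of the 45 called list members outside the SDEGs, 6 kept the call in all 14. SDEG calls were kept in between 7 (AT3G28540 and BGLU46) and 14 (BGLU45) of the 14 alternatives. With only the 4 KRAB libraries in the fit there were 1 upregulated and 0 downregulated SDEGs, with 147 genes higher and 30 lower. With the filter on the KRAB libraries 11 of the 17 stayed SDEGs, while AT2G05510, AT3G28540, EXT4, CYP707A1, OMTF3 and BGLU46 lost the call. The 3 genes that this filter added passed it only through the Dex group, where they are high, so they are not counted. With no filter on low counts there were 155, 8, 920 and 497. DESeq2 gave 36 upregulated and 2 downregulated SDEGs, and the edgeR exact test 56, 3, 521 and 264. Thinning every library to the smallest total gave 7 upregulated SDEGs and 227 genes higher, a block of deeper against shallower KRAB libraries 26 upregulated SDEGs, and an adjusted p under 0.01 in place of 0.0001 57 and 3 SDEGs. Leaving out 1 KRAB library at a time gave 3 to 44 upregulated SDEGs, 1 to 3 downregulated SDEGs, 86 to 398 genes higher and 16 to 185 lower, where the lone library left in a group is assumed to vary like the other groups. The causes were not tested. Other scalings moved the median of all genes to between −0.0116 and 0.0170. Replicate numbers gave no sign of a pairing of the samples. Deviations of same-numbered KRAB libraries from their group means correlated at 0.0329, and over all pairs of groups between −0.127 and 0.0710. With 2 libraries per group, these values cannot decide whether same-numbered samples were paired. With the replicate block there were 11 upregulated SDEGs, 1 downregulated SDEG, 273 genes higher and 108 lower. The count of genes whose response differed between the lines, 8033, stayed between 6459 and 9419. FRO2, which had a lower DMSO level than IRT1, rests on 55 and 49 counts in KRAB (+DMSO), in replicate order, for 4.88 and 1.72 CPM.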

Other observations

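The filter of the tests left out genes with few counts in the libraries without Dex. The genes below exceeded 2 CPM in both KRAB (+0.25 μM Dex) libraries. As they were kept only through the group where they are high, their values are given with no test, and they were chosen after these values were seen. CYS2, a cystatin that inhibits cysteine proteases, had 145 and 77.2 CPM in KRAB (+0.25 μM Dex), against 0.264 and 1.08 CPM in KRAB (+DMSO). The DMSO values rest on 3 and 31 counts. HO4, a heme oxygenase, had 9.55 and 4.32 CPM with Dex, against 0.0879 and 0.174 CPM with DMSO, which are 1 and 5 counts. CYP94B3, which hydroxylates the active jasmonate conjugate, had 37.9 and 30.7 CPM with Dex, against 1.67 and 2.01 CPM with DMSO. CYP82C4, an iron deficiency gene, had 7.92 and 24.9 CPM with Dex, against 0.791 and 0.312 CPM with DMSO. As in IRT1 and FRO2, its highest library was Dex replicate 2 and its lowest DMSO replicate 2. SARD1, a regulator of salicylic acid synthesis, had 12.7 and 7.05 CPM with Dex, against 1.58 and 0.625 CPM with DMSO.

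Several large changes missed the SDEG threshold on the adjusted p alone: of the 76 genes that rose by at least 1 on the log2 scale, 60 did. BCA3, a carbonic anhydrase, had 57.1 and 18.3 CPM in KRAB (+0.25 μM Dex), against 2.49 and 3.12 CPM in KRAB (+DMSO) (3.79, adjusted p = 4.09e-04). Among genes annotated as chitinases, AT2G43590 had 189 and 65.9 CPM with Dex, against 14.1 and 21.9 CPM with DMSO (2.80), and AT2G43570 had 36.6 and 13.1 CPM with Dex, against 4.79 and 4.52 CPM with DMSO (2.54). In these 3 genes Dex replicate 1 was far above Dex replicate 2, and both lay above the DMSO libraries. Of 15 tested genes named as extensins (EXT) or proline-rich proteins (PRP), 6 rose and 0 fell, with a median log2 fold change of 0.05. Among all genes tested, 2.06% rose and 0.813% fell. AT1G26250, annotated as an extensin-like protein, had −1.01 (adjusted p = 0.0107). In other families read in this way, 1 of 21 expansins rose and 1 fell, and 8 of 41 class III peroxidases rose and 1 fell. Of 7 trehalose-phosphate synthase family genes, 0 rose and 2 fell. All genes and families in this paragraph were chosen after their values were seen.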
